A study of Mus musculus with 6 samples.

Results

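The mitochondrial ribosomal proteins were examined in leg muscle of mouse fetuses at embryonic day 18.5 (E18.5d). They were taken by symbol, as every protein-coding gene whose name begins with *Mrpl* or *Mrps* followed by a number, with names from the GENCODE M21 annotation of mm10. The rule found 78 genes of the 56262 genes counted, 21897 of which are protein-coding. By name, 49 belong to the large subunit and 29 to the small subunit. They lie on 17 chromosomes, with 11 of them on chromosome 11.

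The mitochondrial ribosome makes the respiratory chain proteins that are still encoded by the mitochondrial genome. Its ribosomal RNAs come from that genome, while its proteins are encoded in the nucleus, translated on cytosolic ribosomes and imported. Many of these proteins have a counterpart in the bacterial ribosome, and the others exist in mitochondria only. Skeletal muscle is rich in mitochondria, and its respiratory capacity increases as fibers mature.

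RNA-seq counts from 3 WT and 3 KO samples were compared. The KO fetuses lack *SYISL*, a lncRNA transcribed from within the *Synpo2* locus, whereas the WT fetuses are wild type. Dams were mated with males of their own genotype, so the genotype of the fetus and that of its mother cannot be told apart. The labels do not say whether the samples came from separate fetuses or litters, so the p-values measure only the spread between these samples, which may be technical.

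The samples held 82054811 to 102233181 counts. *SYISL* was not measured under a symbol of its own. *Synpo2*, its host gene on the minus strand at chr3:123076519-123236149, was at 137, 131 and 139 CPM (counts scaled to library size) in WT and at 193, 220 and 229 CPM in KO, so the deletion itself was not checked by these counts. Markers of several tissues differed between the genotypes. Of 10 skeletal muscle markers 8 rose by more than 1.5-fold and 1 fell by less than that, and their summed level was 20146 to 22480 CPM in WT and 43221 to 53035 CPM in KO. All 10 epidermal markers fell by more than 1.5-fold, from a sum of 16513 to 24754 CPM in WT to 733 to 848 CPM in KO. All 7 red blood cell markers fell likewise, from 3947.5 to 5191 CPM to 548 to 669 CPM, and all 8 fat markers rose, from 118 to 153 CPM to 421 to 508 CPM. No marker of these 4 lists was at 0 in either genotype. In bulk samples, fewer cells of a type and less RNA per cell cannot be told apart, and the part of these tissues in the differences described here was not tested.

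Nuclear genes of mitochondrial proteins often carry sites for the transcription factors NRF1, GABP (an ETS factor) and YY1, so the starts of the members were searched for them. Windows of 250 bases before to 50 bases after the start were taken from RefSeq (GRCm38.p6), where 69 members matched with 75 windows. An NRF1 motif (CGCANGCG) on either strand was present in 26.7% of the member windows, against 8.21% of all 32851 windows and 11.1% of the 21262 windows of protein-coding genes. An ETS motif (CCGGAAGT) was present in 16% of the member windows, against 3.89% of all windows and 5.15% of coding ones. A YY1 motif (AAGATGGC) was present in 16%, against 2.75% and 3.05%. In all, 37 of the 75 windows (49.3%) held at least 1 of the 3 motifs, against 13.6% of all windows and 17.6% of coding ones. None of the motifs contains another, and a window was counted once for each motif. These matches describe letters only, since no binding was measured.

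In the following stretches such matches are in capitals, and the bases run 5′ to 3′ on the strand of the gene. *Mrpl43* was chosen because it holds both an NRF1 and an ETS match, *Mrpl12* and *Mrpl10* because they encode proteins of the stalk that receives translation factors and hold an NRF1 match, and *Mrpl45* because it holds NRF1 matches at 3 positions, 2 of them in the stretch shown and the other 17 bases past its start. They lie at chr19:45006443-45006542 (minus strand), chr11:120484513-120484612 (plus), chr11:97041432-97041559 (plus) and chr11:97315582-97315715 (plus).
Mrpl43: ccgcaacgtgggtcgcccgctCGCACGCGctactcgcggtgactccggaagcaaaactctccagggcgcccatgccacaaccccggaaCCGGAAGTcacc
Mrpl12: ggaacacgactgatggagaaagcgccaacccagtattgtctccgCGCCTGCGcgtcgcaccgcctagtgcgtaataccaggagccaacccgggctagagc
Mrpl10: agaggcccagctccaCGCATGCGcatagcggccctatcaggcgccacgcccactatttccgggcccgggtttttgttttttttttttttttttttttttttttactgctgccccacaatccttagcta
Mrpl45: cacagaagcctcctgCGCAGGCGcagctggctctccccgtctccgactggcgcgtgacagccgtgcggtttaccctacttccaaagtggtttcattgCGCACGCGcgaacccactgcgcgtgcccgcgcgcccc

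The next 3 stretches lie upstream of *Mrps36* and *Mrpl42*, the members with the largest positive fold changes between the genotypes, and of *Mrps25*, the member with the most negative one. They lie at chr13:100744660-100744759 (minus strand), chr10:95501950-95502049 (minus) and chr6:92184034-92184133 (minus). None of the 3 motifs occurs in these bases, so they hold no capitals. *Mrpl42* has a YY1 match 28 bases past its start, outside the stretch shown.
Mrps36: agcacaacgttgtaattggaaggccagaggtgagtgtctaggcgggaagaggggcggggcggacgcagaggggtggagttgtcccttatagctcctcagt
Mrpl42: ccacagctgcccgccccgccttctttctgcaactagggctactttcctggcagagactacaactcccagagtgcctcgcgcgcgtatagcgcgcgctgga
Mrps25: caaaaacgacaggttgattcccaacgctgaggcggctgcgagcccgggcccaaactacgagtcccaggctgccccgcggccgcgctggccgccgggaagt

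The members shared other features that the rule did not use. Another protein-coding gene began on the opposite strand, from 1000 bases upstream to 200 bases past the start, for 23 of 77 tested members (29.9%) and for 10.04% of the 16313 protein-coding genes tested. The merged exon length of the tested members had a median of 2533 bases (607 to 8631), against 4237 bases for protein-coding genes. Their median GC content was 49.7%, against 49.9%. The exons of 33 members overlapped another gene, and for 23 of them a protein-coding one. The counting is not stated to use strand, so reads from such overlaps cannot be assigned with certainty.

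The members were expressed at moderate levels with little spread between samples. Of the 78, 77 passed the filter on low counts and were tested among 22071 genes. Their mean level ran from 7.15 to 110.8 CPM, with a median of 28.9 CPM, which lies above the level of 69.8% of the genes tested. The median coefficient of variation within genotypes was 4.64%.

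*Mrpl53*, which encodes a large subunit protein near the stalk, had 0 counts in all 6 samples and was not tested. A count of 0 allows up to 3 counts, or 0.0284 to 0.0363 CPM in these samples, for counting error only. Most of its exon bases lie within exons of *Gm42688*, a protein-coding gene on the same strand with 122, 94 and 136 counts in WT and 142, 169 and 160 counts in KO. The level of *Mrpl53* itself could not be read from these counts.

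Levels of different genes were compared per kilobase of merged exon. *Mrps21*, of the small subunit, had the highest level, at 50.5 CPM per kilobase in WT and 49.6 in KO. It was followed by the stalk protein gene *Mrpl12* (39.7 and 47.1 CPM per kilobase) and by *Mrpl54* (41.8 and 40.4 CPM per kilobase), whose order differed between the genotypes. The lowest levels belonged to *Mrps25* (3.42 in WT and 2.92 in KO), *Mrps35* (2.83 and 3.72) and *Mrps34* (3.22 and 3.71), all in CPM per kilobase. The merged exons of *Mrps25* and *Mrps35* are long, at 6576 and 8631 bases, and *Mrps34* shares exon bases with *Nme3* and *Mapk8ip3*, which bears on their levels per kilobase.

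The comparison of KO with WT asked whether genes of the mitochondrial ribosome differed in leg muscle that lacks *SYISL*. No member was a differentially expressed gene (DEG), defined as an adjusted p below 0.05 in edgeR's quasi-likelihood test together with a fold change above 1.5, whereas 16.7% of all genes tested were DEGs. DESeq2 and limma-voom also called 0 members. An unadjusted p below 0.05 was reached by 24 of the 77 members, 0 of them with a fold change above 1.5. Of the 22071 genes tested 11446 reached it, 3921 of them with such a fold change.

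Without a threshold on fold change, 15 members rose and 4 fell at an adjusted p below 0.05. Of all genes tested, 21.9% rose and 23.1% fell by this rule, 45.0% in all, and the 19 members called make up 24.7% of the 77. DESeq2 called 14 members higher and 3 lower, and limma-voom called 15 and 4. The balance between the directions depended on how the libraries were scaled. With upper-quartile factors 29 members rose and 0 fell, and with library sizes alone 8 rose and 11 fell. The share of all genes called under these scalings is not given here. The median log2 fold change of all genes moved as well, to 0.064 and -0.073, so these counts do not describe the members alone. The number of calls also moved when a sample was left out, while rises outnumbered falls each time. There were 8 rises and 2 falls without WT replicate 3, 9 and 0 without KO replicate 3, and 10 and 3 without KO replicate 2. There were 12 and 2 without WT replicate 2, 13 and 3 without WT replicate 1, and 19 and 4 without KO replicate 1. These fits rest on fewer samples than the main one, and the part of that in the lower counts was not tested. The shares of all genes that rose and fell in them are not given here, so the balance cannot be read as particular to the members.

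The differences were small. The log2 fold changes ran from -0.23 to 0.51, with a median of 0.03 against -0.00 over all genes tested. The median of the members was 0.10 with upper-quartile factors and -0.038 with library sizes alone, and that of all genes moved with it, to 0.064 and -0.073. Standard errors ran from 0.04 to 0.10 on the log2 scale. For 75 of the 77 members the 95% interval of the fold change lay within 1.5-fold in both directions, as it did for 58.0% of all genes tested, a count chosen after the values had been seen. Intervals tend to be wider for genes with few counts, and the share of genes at the members' levels is not given here. The intervals of *Mrps36* and *Mrpl42* reached past 1.5-fold.

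**Figure D1:**
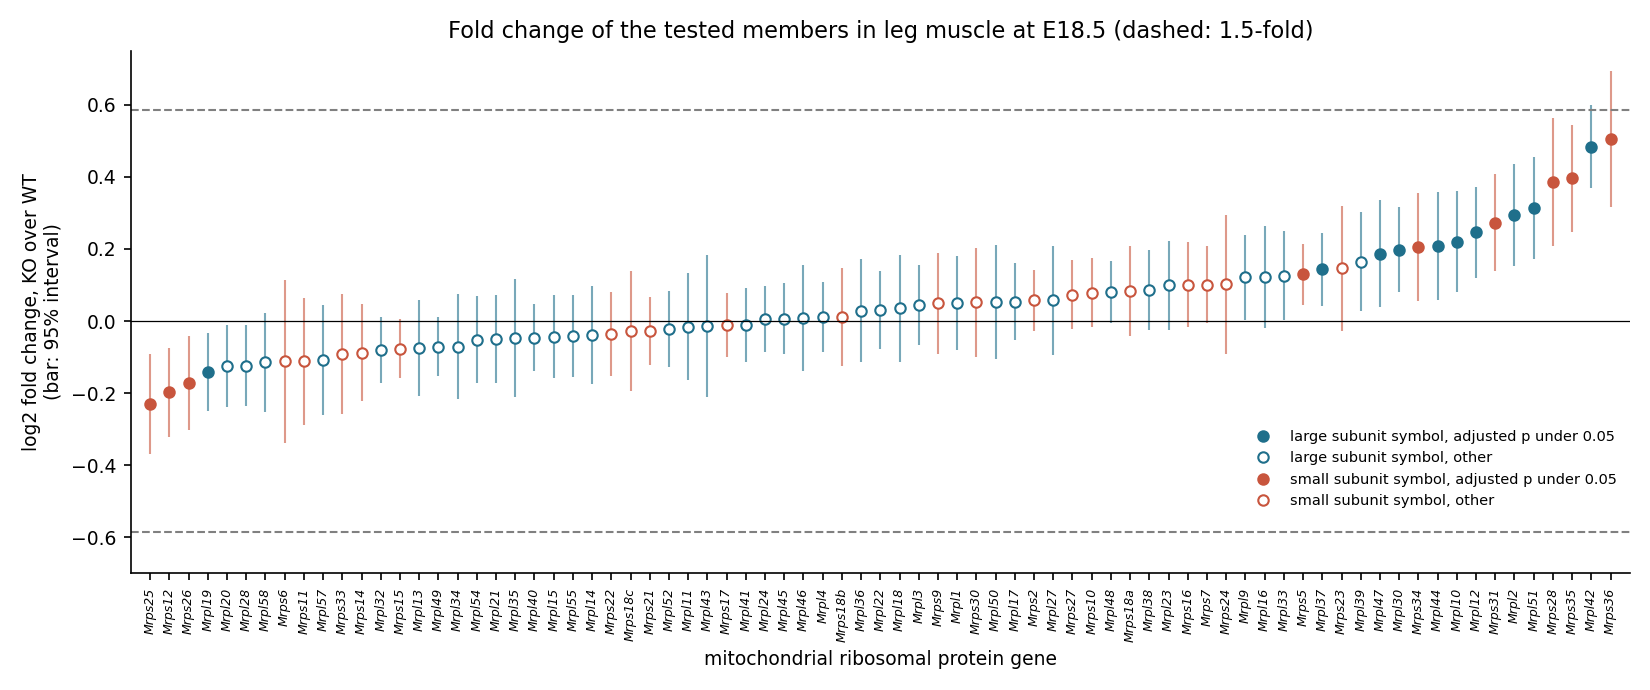
Log2 fold change (KO over WT, y axis) of each of the 77 tested members (x axis, ordered by fold change), with 95% intervals as bars and colors for the subunit in the symbol. Filled points have an adjusted p below 0.05 in edgeR's quasi-likelihood test, and dashed lines mark 1.5-fold. All points lie between the dashed lines, from -0.23 for *Mrps25* to 0.51 for *Mrps36*.

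Of 48 large subunit members tested, 9 rose and 1 fell, with a median log2 fold change of 0.02. Of 29 small subunit members, 6 rose and 3 fell, with a median of 0.05. Among all genes tested 21.9% rose and 23.1% fell. In 21 of the 77 members the 3 KO values all lay above the 3 WT values and in 10 members all lay below them. Of the 22071 genes tested, 6036 had all KO values above and 6297 all below, 55.9% in all. Without KO replicate 1 the members with all KO values above were 32. Without KO replicate 2 those with all below were 18. Smaller groups lie apart more easily, so these 2 counts do not describe those replicates alone. The share of all genes in the smaller sets is not given here. With library sizes alone the member counts were 10 above and 25 below, and with upper-quartile factors 31 above and 4 below.

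The largest positive fold change was that of *Mrps36* (ENSMUSG00000061474.11, chr13:100735955-100744659, minus strand). Despite its name, its product is known as a subunit of the oxoglutarate dehydrogenase complex of the citric acid cycle. It was at 17.7, 19.3 and 17.6 CPM in WT and at 22.8, 28.9 and 25.9 CPM in KO. All 3 KO samples lay above all WT samples, and KO replicate 1 was the lowest of them. The log2 fold change was 0.51 ± 0.08 (SE), with an adjusted p of 0.000952 (edgeR). Without KO replicate 1 it was 0.59 and *Mrps36* met the DEG rule. Leaving *Mrps36* out of the list left 14 rises and 4 falls among 76 members. Its pseudogenes *Mrps36-ps1*, *Mrps36-ps2* and *Mrps36-ps3* held 0 to 25 counts per sample, against 1598 to 2753 for the gene, and reads shared with such copies could not be told apart.

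*Mrpl42* (chr10:95480805-95501940, minus strand) encodes a large subunit protein found in mitochondria only, and it had the highest CPM of the members. It was at 93.2, 90.8 and 93.1 CPM in WT and at 119, 137 and 132 CPM in KO. The groups were far apart, and the WT samples lay close together. Its log2 fold change was 0.48 ± 0.05 (SE), with an adjusted p of 5.53e-05 (edgeR).

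In the small subunit, *Mrps35*, specific to mitochondria, and *Mrps28*, a counterpart of bacterial S1, had the next largest rises. *Mrps35* (chr6:147042764-147073991, plus strand) was at 25.4, 24.4 and 23.4 CPM in WT and at 29.0, 34.3 and 32.998 CPM in KO (log2 fold change 0.40 ± 0.07, adjusted p = 0.00100, edgeR). *Mrps28* (chr3:8802146-8923918, minus strand) was at 11.4, 12.1 and 11.2 CPM in WT and at 13.5, 16.5 and 15.2 CPM in KO (log2 fold change 0.39 ± 0.08, adjusted p = 0.00340, edgeR). In both genes all KO samples were higher than all WT samples, with KO replicate 1 the lowest of the KO samples.

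*Mrpl51* (chr6:125191801-125196269, plus strand), a large subunit protein of mitochondria only, was at 63.9, 55.5 and 56.5 CPM in WT and at 68.6, 77.2 and 72.7 CPM in KO. The groups did not overlap, and WT replicate 1 came closest to the lowest KO sample. Its log2 fold change was 0.31 ± 0.06 (adjusted p = 0.00293, edgeR). With *Mrpl2*, a counterpart of the bacterial protein next to the peptidyl transferase center (log2 fold change 0.30), *Mrps31* (0.27) and *Mrpl12* (0.25), these 5 genes made up the 8 members called higher under all 17 alternative settings. *Mrpl2* and *Mrps31* are named here after their values were seen.

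The remaining rises were smaller and less stable. *Mrpl10*, *Mrpl44*, *Mrps34*, *Mrpl30*, *Mrpl47*, *Mrpl37* and *Mrps5*, of which *Mrpl44*, *Mrpl30*, *Mrpl37* and *Mrps5* were also named after their values were seen, had log2 fold changes from 0.13 to 0.22. Each was called under 9 to 14 of the 17 settings.

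The 4 falls were in *Mrps25*, *Mrps12*, *Mrps26* and *Mrpl19*. *Mrps25* (chr6:92169525-92184033, minus strand), a small subunit protein of mitochondria only, was at 24.0, 22.6 and 20.9 CPM in WT and at 19.8, 19.2 and 18.6 CPM in KO. The highest KO sample lay just below the lowest WT sample. Its log2 fold change was -0.23 ± 0.06 (adjusted p = 0.0132, edgeR), and it was called under 15 of the 17 settings, not with upper-quartile factors (adjusted p = 0.0611) nor without KO replicate 3 (adjusted p = 0.0736).

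*Mrps12* (chr7:28739641-28741820, minus strand), the counterpart of the bacterial protein at the decoding center, was at 16.3, 16.2 and 16.1 CPM in WT and at 13.7, 14.8 and 13.9 CPM in KO. The WT samples were nearly equal, and all KO samples lay below them. Its log2 fold change was -0.20 ± 0.05 (adjusted p = 0.0159, edgeR), and it was called under 13 settings. It lost its call with upper-quartile factors (adjusted p = 0.0886), with offsets for GC content and length (-0.09, adjusted p = 0.209), without WT replicate 3 (0.0515) and without KO replicate 3 (0.0813), all by edgeR.

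*Mrps26* (chr2:130563742-130568695, plus strand) was at 22.5, 23.1 and 21.998 CPM in WT and at 20.8, 20.6 and 18.6 CPM in KO (log2 fold change -0.17 ± 0.06, adjusted p = 0.0361, edgeR). *Mrpl19* (chr6:81957851-81965958, minus strand) was at 22.2, 23.3 and 22.9 CPM in WT and at 20.2, 20.9 and 20.9 CPM in KO (log2 fold change -0.14 ± 0.05, adjusted p = 0.0363, edgeR). Neither gene overlapped between the genotypes, but they were called under only 9 and 7 of the 17 settings. *Mrpl20*, with the fifth most negative value, was at 35.1, 35.0 and 32.2 CPM in WT and at 31.1, 32.5 and 30.1 CPM in KO (log2 fold change -0.12, adjusted p = 0.0735, edgeR), and its groups overlapped.

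**Figure D2:**
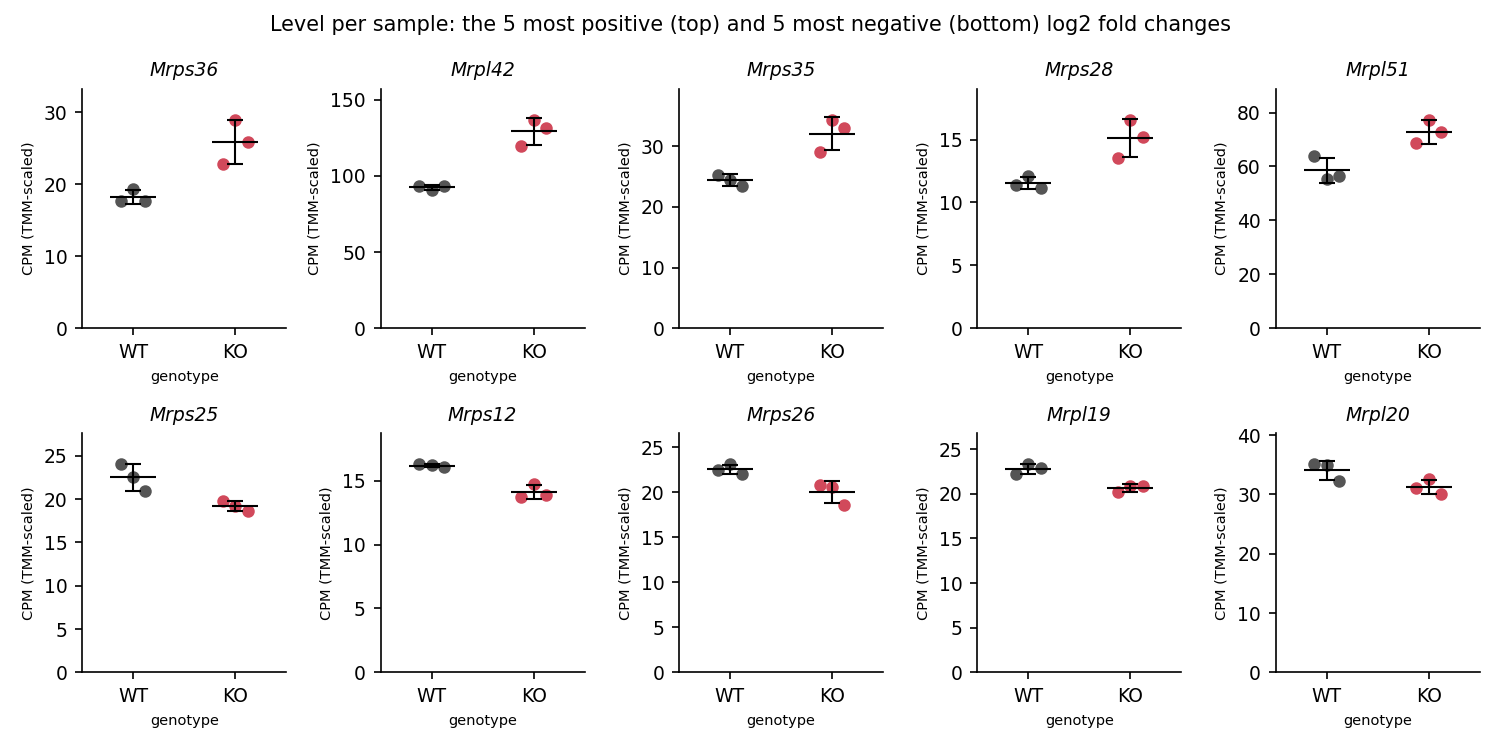
Level in CPM scaled by trimmed mean of M values (TMM, y axis from 0) of 10 members in the 3 WT and 3 KO samples (x axis), with the mean and SD in black. The upper row holds the 5 most positive log2 fold changes, from 0.51 for *Mrps36* to 0.31 for *Mrpl51*, and the lower row the 5 most negative, from -0.23 for *Mrps25* to -0.12 for *Mrpl20*. In 9 of the 10 genes the samples of the genotypes do not overlap, and in *Mrpl20* they do.

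Grouped by ancestry, 48 members with a bacterial counterpart held 7 rises and 2 falls, and 28 tested members specific to mitochondria held 7 rises and 2 falls. Both groups had a median log2 fold change of 0.03, and 45.0% of all genes tested were called in either direction. In the stalk, which recruits translation factors, *Mrpl12* and *Mrpl10* rose. *Mrpl12* was at 59.9, 60.3 and 62.2 CPM in WT and at 65.8, 77.2 and 73.3 CPM in KO (log2 fold change 0.25 ± 0.06, adjusted p = 0.00607, edgeR), with no overlap. *Mrpl10* was at 39.7, 41.8 and 40.4 CPM in WT and at 52.5, 44.8 and 44.8 CPM in KO (0.22 ± 0.06, adjusted p = 0.0175, edgeR). Here KO replicate 1 was the highest sample, unlike in most members. *Mrpl11* and *Mrpl54*, also of the stalk, had log2 fold changes of -0.02 and -0.05 with adjusted p of 0.874 and 0.477 (edgeR).

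In the central protuberance, the part of the large subunit that faces the head of the small one, 0 of 8 members were called by edgeR, DESeq2 or limma-voom, and 0 reached an unadjusted p below 0.05. By edgeR 45.0% of all genes tested were called, and 11446 of 22071 reached that unadjusted p. Their log2 fold changes ran from -0.11 for *Mrpl58*, a peptidyl-tRNA hydrolase built into the ribosome, to 0.09 for *Mrpl38*, with *Mrpl40* (-0.05), *Mrpl55* (-0.04), *Mrpl46* (0.01), *Mrpl18* (0.03), *Mrpl27* (0.06) and *Mrpl48* (0.08) between them. Around the exit tunnel, through which new proteins leave, *Mrpl47* rose among 6 members. It was at 21.1, 19.3 and 19.1 CPM in WT and at 20.9, 24.0 and 22.8 CPM in KO (0.19 ± 0.07, adjusted p = 0.0442, edgeR), and the groups overlapped through WT replicate 1 and KO replicate 1. The other tunnel members were *Mrpl24* and *Mrpl45* (0.01 each), *Mrpl22* (0.03), *Mrpl17* (0.05) and *Mrpl23* (0.10), none of them called.

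Mammals have 3 mitochondrial versions of bacterial S18, which take different places in the ribosome. *Mrps18a*, which sits in the large subunit despite its name, had a log2 fold change of 0.08 (adjusted p = 0.252, edgeR). *Mrps18b* had 0.01 (adjusted p = 0.896) and *Mrps18c* -0.03 (adjusted p = 0.790), also by edgeR. *Mrps30*, the other large subunit protein with a small subunit name, had 0.05 (adjusted p = 0.569, edgeR). None of these 4 reached an unadjusted p below 0.05, and neither DESeq2 nor limma-voom called any.

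Summed over all members, the level in WT was 2421 ± 45.7 CPM and that in KO 2547 ± 102.4 CPM (mean ± SD, n = 3), a mean 5.23% higher in KO. On the same scale the sum over all genes tested was 4.87% higher in KO, close to that of the members. The WT samples were at 2472, 2404 and 2386 CPM and the KO samples at 2444, 2649 and 2548 CPM, so WT replicate 1 lay above KO replicate 1 and the groups overlapped. As a share of all counts the members took 0.242% to 0.255% in WT and 0.245% to 0.255% in KO. The large subunit sum was 1629 ± 29.4 CPM for WT and 1724 ± 70.7 CPM for KO, and the small subunit sum was 791 ± 16.8 and 823 ± 31.7 CPM. The ratio of large to small was 2.06 ± 0.014 in WT and 2.09 ± 0.0072 in KO. With counts per kilobase it was 2.23 in both.

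Among the KO samples, replicate 1 had the lowest KO value in 55 of the 77 members and in 38.4% of all genes tested. KO replicate 2 had the highest KO value in 55 members, and its share over all genes is not given here. The summed level of complex I subunits followed the same order of KO samples, at 2752, 3350 and 3138 CPM. Without KO replicate 1 the members held 19 rises and 4 falls, and the share of all genes called in that fit is not given here.

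The partners of the members in mitochondrial translation were described in the same way. The 5 ribosomal proteins with other symbols, *Dap3*, *Ptcd3*, *Gadd45gip1*, *Chchd1* and *Aurkaip1*, had log2 fold changes from -0.13 to 0.06, and *Aurkaip1* alone was called (-0.13, adjusted p = 0.0448, edgeR). Of 26 genes for assembly of the ribosome and processing of its RNA, 7 rose and 3 fell. They were led by the RNA methyltransferase gene *Mettl15* (0.40 ± 0.08, adjusted p = 0.00253, edgeR), while *Rpusd3*, a pseudouridine synthase, had 0.38 ± 0.09 (adjusted p = 0.00897, edgeR). Their median was 0.03 and turned to -0.04 with library sizes alone, where 4 rose and 5 fell.

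Of 14 translation factor genes 4 rose and 1 fell, with a median of 0.13. *Mrrf*, the ribosome recycling factor, fell, with 36.5 ± 1.41 CPM in the WT samples and 28.9 ± 1.74 CPM in the KO samples (log2 fold change -0.34 ± 0.05, adjusted p = 0.000786, edgeR). *Pdf*, which removes the formyl group from new proteins, had the largest value (0.40 ± 0.20) at under 1 CPM and was not called (adjusted p = 0.125, edgeR). Of 20 genes for aminoacyl-tRNA synthesis 3 rose and 1 fell, with a median of -0.00. *Gatb* (0.31 ± 0.06) and *Aars2* (0.29 ± 0.05) had the largest values and both were called. Of 6 genes for mitochondrial transcription and mRNA stability, only *Tefm*, an elongation factor, was called (0.30 ± 0.10, adjusted p = 0.0385, edgeR), and *Slirp* had -0.17 (adjusted p = 0.365, edgeR).

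These 71 partner genes together held 15 rises, 6 falls and 0 DEGs by edgeR, and DESeq2 and limma-voom also gave 0 DEGs. An unadjusted p below 0.05 was reached by 26 of them, 0 with a fold change above 1.5, and by 11446 of the 22071 genes tested. With upper-quartile factors 26 rose and 3 fell, and with library sizes alone 10 rose and 10 fell. In the main edgeR fit 21.9% of all genes tested rose and 23.1% fell, as given for the members, and their share under the other scalings is not given here.

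Of 9 regulators of mitochondrial biogenesis 2 rose and 5 fell, and by the same rule 45.0% of all genes tested were called. *Ppargc1a*, the coactivator that drives expression of mitochondrial genes in muscle, rose, with 8.77 ± 0.72 CPM in the WT samples and 17.8 ± 1.82 CPM in the KO samples, and was the only DEG among them (log2 fold change 1.02 ± 0.09). *Nrf1* (-0.29) and *Yy1* (-0.18), whose products bind the NRF1 and YY1 motifs, fell, and *Gabpa* had -0.06 (adjusted p = 0.348, edgeR). These 3 genes are named because their motifs were searched. 

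The ribosomal RNAs *mt-Rnr1* and *mt-Rnr2* had log2 fold changes of 0.07 and -0.04, with adjusted p of 0.469 and 0.597 (edgeR), and they summed to 1076 ± 77.5 CPM in the WT samples and 1087 ± 39.1 CPM in the KO samples. Whether ribosomal RNA was depleted is not given in the sources used here. Of the 13 mitochondrial mRNAs 8 rose and 0 fell, with a median of 0.33, and *mt-Co3* (0.72 ± 0.17) and *mt-Nd4l* (0.61 ± 0.15) were DEGs. Among all genes tested 21.9% rose and 16.7% were DEGs. Their sum was 43331 to 45272 CPM in WT and 51716 to 60703 CPM in KO.

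Of 37 complex I subunits encoded in the nucleus 33 rose and 0 fell, with a median of 0.38, and *Ndufb10* was a DEG (0.72 ± 0.06). Of 76 cytosolic ribosomal proteins 0 rose and 63 fell, with a median of -0.24. Among all genes tested 21.9% rose and 23.1% fell. No cytosolic gene was a DEG by edgeR, DESeq2 or limma-voom, and 64 reached an unadjusted p below 0.05, as did 11446 of the 22071 genes tested. *Rpl13a* (-0.44) and *Rps26* (-0.41) had the most negative values. The signs of both medians held with upper-quartile factors (0.45 and -0.17) and with library sizes alone (0.31 and -0.30), under which 39 and 70 cytosolic genes fell. Against these, 15 of 77 mitochondrial ribosomal proteins rose and 4 fell, with a median of 0.03. The difference between the lists was not tested.

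**Figure D3:**
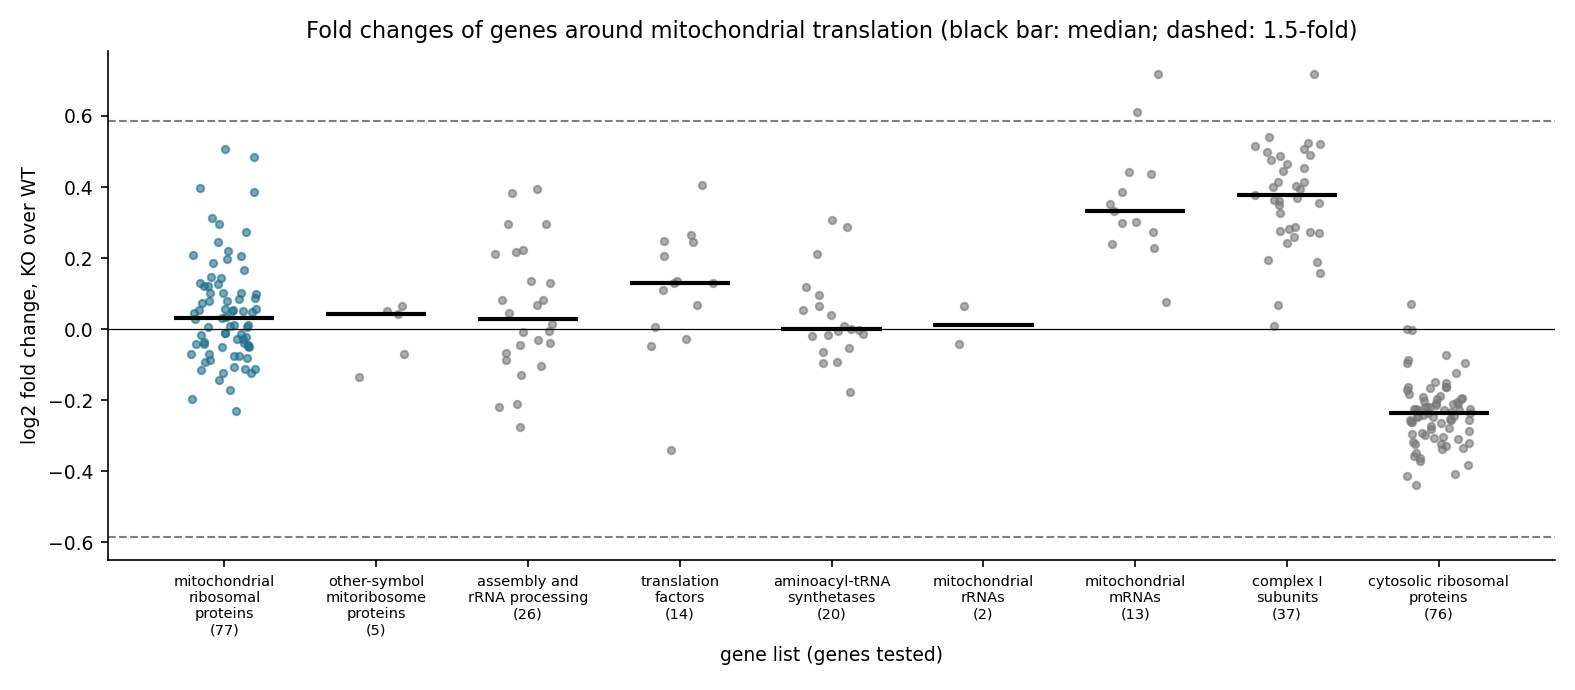
Log2 fold changes (KO over WT, y axis) of the genes tested in each list (x axis, number tested in brackets), 1 point per gene, with black bars at the medians and dashed lines at 1.5-fold. The members center on 0.03, the mitochondrial mRNAs on 0.33, complex I on 0.38 and the cytosolic ribosomal proteins on -0.24.

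**Figure D4:**
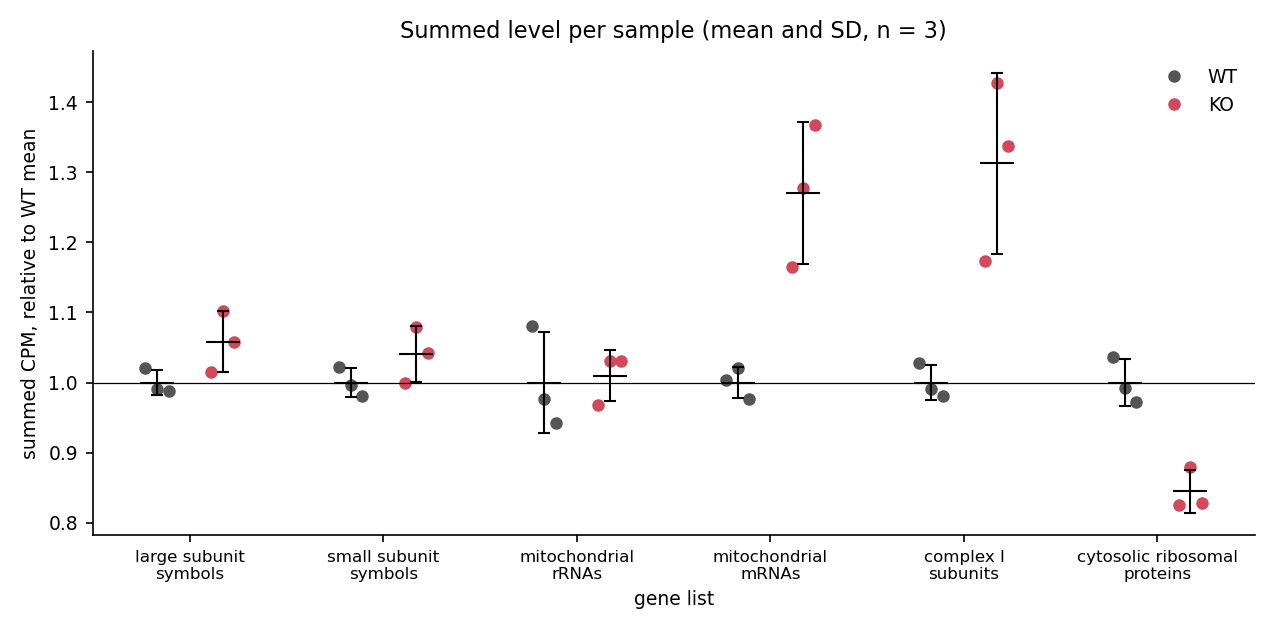
Summed CPM of 6 gene lists in each WT and KO sample, divided by the WT mean of that list (y axis), with the mean and SD of 3 samples in black. The axis does not start at 0. WT and KO samples overlap for both subunits only through WT replicate 1 and KO replicate 1. They overlap for the ribosomal RNAs, and are apart for the mitochondrial mRNAs, complex I and the cytosolic ribosomal proteins. The sum over all genes tested, not shown, was 4.87% higher in KO.

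Members that share a start region with another gene were set beside that gene. In 23 pairs with both genes tested, 26 to 935 bases apart, the member was called in 9, the partner in 11 and both in 4, of which 3 moved the same way, whereas 45.0% of all genes tested were called. In these 3 pairs both genes rose: *Mrpl2* (0.30) with *Klc4* (0.24), *Mrpl37* (0.14) with *Cyb5rl* (0.20) and *Mrpl44* (0.21) with *Wdfy1* (0.95). *Mrpl44* also shares exon bases with *Wdfy1*, so reads from those bases cannot be assigned to either gene with certainty. *Mrpl51* rose (0.31) while *Ncapd2*, a condensin subunit that starts 100 bases away, fell (-0.19, adjusted p = 0.0184, edgeR). *Mrps12* fell (-0.20) while *Sars2*, the mitochondrial seryl-tRNA synthetase, had 0.00 (adjusted p = 0.995, edgeR). *Mrpl49* had -0.07 and its partner *Fau*, which encodes a cytosolic ribosomal protein, fell (-0.24, adjusted p = 0.00413, edgeR). These pairs were picked after their values were seen. A motif was present in 7 of the 12 matched members that rose, in 2 of 3 that fell and in 28 of 53 that were not called.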

How the data were processed

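Gene counts of leg muscle RNA-seq from 3 WT and 3 KO samples were used. The authors deposited raw counts per gene. Per the study's methods and its submitters' processing notes, paired-end reads were trimmed with Trim Galore (0.6.6), mapped to mm10 with HISAT2 (2.2.1) and counted with featureCounts (2.0.1). The annotation and strand setting of the counting and any removal of ribosomal RNA are not given in the sources used here. Gene IDs were matched, without version, to GENCODE M21 (55141 found, 1121 not). Samples were grouped by the genotype in their labels.

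Counts were tested with edgeR (4.0.16; R 4.3.3) after filterByExpr, with TMM factors, a model of genotype alone, the quasi-likelihood test and Benjamini-Hochberg adjustment over 22071 genes. Levels are CPM with TMM-scaled library sizes. The biological coefficient of variation was 7.68%. The methods were tested on simulated counts with 200 changed genes. Alternatives were DESeq2 (1.42.0), limma-voom (3.58.1), other size factors, other filters, offsets for GC content and length, a replicate block and each replicate left out. DESeq2, which the authors used, was an alternative here, and the thresholds are those of the study, applied to adjusted p. The labels do not say that the replicate numbers mark litters, so they were not treated as pairs. For replicates with the same number, deviations from the group means correlated at -0.20, -0.13 and 0.05, which cannot exclude a link between them.

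The members, gene lists and thresholds were chosen with earlier results of these data known. Genes were named by rule: members called as DEGs, the 5 most positive and 5 most negative fold changes above a mean of 5 CPM, the 3 highest and 3 lowest levels per kilobase, the members of the stalk, central protuberance, exit tunnel, S18 and misnamed groups, and in other lists the DEGs or otherwise the 2 largest fold changes. Other names are marked in the text. Cartilage, endothelial, macrophage, fibroblast and proliferation markers were also counted: at an adjusted p below 0.05 there were 2 rises and 5 falls of 8, 6 and 0 of 7, 8 and 0 of 8, 6 and 0 of 7, and 0 and 5 of 7. No column of the deposited tables was left without a sample. Motifs were searched in RefSeq windows, and protein sequences were not used here.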

Additional observations from a re-analysis of the deposited data

How the results depend on the processing

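No member was a DEG in 15 of the 17 alternative fits. *Mrps36* was the 1 DEG with the offsets for GC content and length and without KO replicate 1 (0 to 1 over the left-out replicates), and at the lower fold threshold there were 4 DEGs, all higher. The 15 rises were 29 with upper-quartile factors, 8 with library sizes alone, 27 with the offsets, 8 at an adjusted p below 0.01 and 8 to 19 with a replicate left out, lowest without WT replicate 3 and 9 without KO replicate 3. The 4 falls were 0, 11, 1, 0 and 0 to 4 in the same order, 0 without KO replicate 3 and 2 without WT replicate 2 or 3. With the offsets the median log2 fold change of all genes moved as well, from -0.004 to 0.051. The calls and the DEG under them therefore do not describe the members alone. The shares of all genes called with the offsets or with a replicate left out are not given here. With the replicate block there were 12 rises and 2 falls. The labels do not say what the replicate numbers mark. The correlations of so few same-numbered samples cannot settle whether those samples share more than a number.

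The median log2 fold change of 0.03 was 0.10 with upper-quartile factors, -0.038 with library sizes alone, 0.090 with the offsets and 0.0050 to 0.071 with a replicate left out. The 21 members with all KO values higher were 31 with upper-quartile factors, 10 with library sizes alone and 21 to 32 with a replicate left out. The 10 with all KO values lower were 4 with upper-quartile factors, 25 with library sizes alone and 10 to 18 with a replicate left out. Smaller groups lie apart more easily, so the ranges with a replicate left out do not describe the replicates alone. The ratio of large to small was 2.23 in WT and 2.23 in KO with counts per kilobase. The 15 rises of the partner genes were 26 with upper-quartile factors and 23 with the offsets, and their 6 falls were 3, 10 (library sizes alone) and 3. The members' median lay 0.04 above that of all genes, 0.039 above it with the offsets, 0.0082 without KO replicate 2 and 0.073 without KO replicate 1. The cause of these moves was not tested. For the 40 members named or called, 610 of the values under alternatives kept their side of the threshold, 61 lost the call and 9 gained one. The sign changed in 36 values of 15 members, 0 of them called in either fit.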
